A study of Caenorhabditis elegans with 15 samples.

Results

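Complex I deficiency was followed through the whole transcriptome by comparing *gas-1* mutants with wild-type nematodes (wt). The comparison used every gene that reached at least 1 FPKM, a count of sequenced fragments divided by transcript length and by sequencing depth, in at least 5 of 10 libraries. This rule kept 11093 of the 20483 genes in each table, and the 10 libraries were 5 of *gas-1* mutants and 5 of wt, out of 15 in the series. Poly(A) mRNA was sequenced from whole *Caenorhabditis elegans* on *Escherichia coli* OP50, synchronised with hypochlorite and named L4 in the sample labels. The mutants carry *gas-1(fc21)* on chromosome X in the strain CW152, and wt is the N2 Bristol strain. Both groups are otherwise unmodified, and the remaining libraries, which entered only an alternative fit, come from double mutants that also carry an *age-1* allele. Each genotype is a single strain, so the fc21 mutation and any other difference between the strains cannot be told apart. The replicates are called biological in the study's methods, with no culture or date given per library. The methods also describe RNA taken from young adults, whereas the labels name L4 larvae.

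Complex I passes electrons from NADH to ubiquinone and pumps protons across the inner mitochondrial membrane, which makes it the main entry of NADH into the respiratory chain. The *gas-1* gene encodes a core subunit of complex I, and fc21 is a missense allele known for low complex I activity, sensitivity to volatile anesthetics, few progeny and a short life. When the respiratory chain is impaired, nematodes are known to alter nuclear genes of mitochondrial repair, detoxification, innate immunity and central metabolism.

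In the libraries as a whole, strain was the main axis, with 63.6% of the variance on the first component and 27.8% on the second. FPKM summed to between 658126 and 684241 per library, and read totals are not given with FPKM. The 10 most abundant genes held 11.9% to 13.8% of that sum in *gas-1* mutants and 9.56% to 11.0% in wt. Between 10955 and 11439 genes reached 1 FPKM in *gas-1* libraries, against 10016 to 10696 in wt. Genes of sperm set wt replicate 3 and *gas-1* replicate 2 apart from the rest of their strain, as described with the germline below, and results that move without these libraries are given both ways. Values were tested with limma on log2(FPKM + 0.1) at a 5% false discovery rate (FDR) over all 11093 genes, and fold changes on this scale understate the change of genes with low values.

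By this test 4538 genes rose, 2666 fell and 3889 did not pass in *gas-1* mutants compared to wt. The share called was 64.9% of all tested genes, 40.9% of them higher and 24.0% lower. Every mutant library lay above every wt library in 3470 genes (31.3%), and every mutant library lay below in 2183 (19.7%). Larger changes were mostly upward, with 1251 genes higher and 97 lower by at least 2-fold, 329 and 23 by at least 4-fold, and 31 and 1 by at least 16-fold. The median log2 fold change of all tested genes was 0.12 and the median SE 0.094, with 5% of genes below -0.56 and 5% above 1.52. Because so many genes passed, each class below is read against 40.9% higher and 24.0% lower, and against the median of 0.12. The balance of directions depended on the scaling, as 63.0% of called genes were higher with FPKM as deposited, 59.2% after upper-quartile scaling, 50.5% after median-of-ratios scaling and 40.1% after quantile normalization. The all-gene median moved to 0.10, 0.01 and -0.08 under these scalings. Directions of single classes are given relative to that shift, with the classes whose majority turns round named as such.

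**Figure D1:**
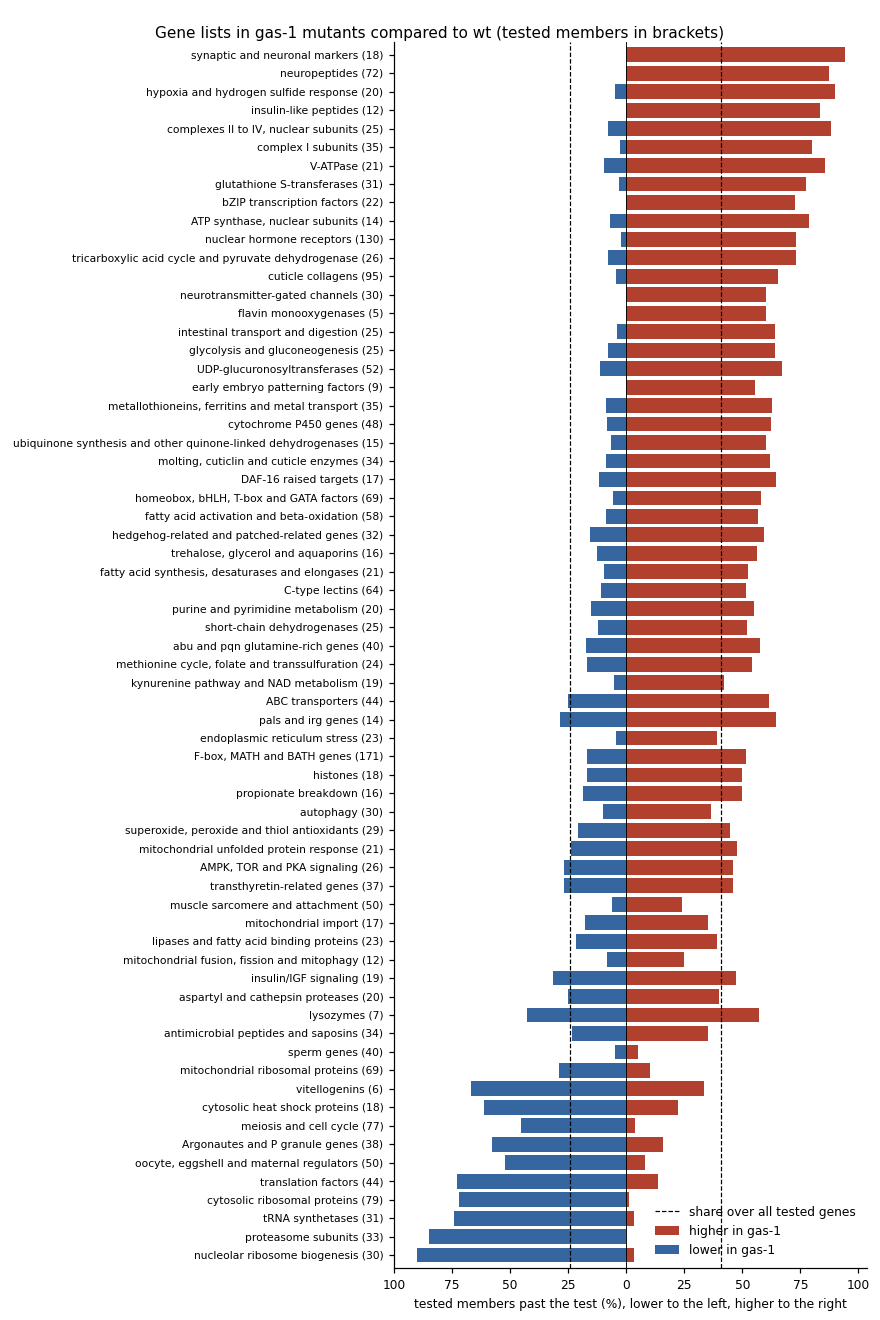
Share of tested members of each of 66 gene lists that rose (red, to the right) or fell (blue, to the left) in *gas-1* mutants compared to wt by limma at 5% FDR, ordered by the difference of both shares. The dashed lines mark the shares over all 11093 tested genes (40.9% higher, 24.0% lower), with neuronal, hypoxia and respiratory lists at the top and nucleolar, proteasome and translation lists at the bottom.

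The mutated gene and most of its partners in the respiratory chain were higher in *gas-1* mutants. The *gas-1* gene, on chromosome X from 15586786 to 15590397 (WBcel235), measured 223, 190.3, 221, 219 and 245 FPKM in *gas-1* mutants, against 120.2, 123, 95.7, 116 and 121 FPKM in wt. Every mutant library lay above every wt library (log2 fold change 0.93, SE 0.081, limma adjusted p = 7.9e-06). As fc21 is a point mutation that leaves the transcript in place, its level is no check of the strain labels. Of 35 nuclear complex I genes, 28 passed as higher, 1 as lower and 6 in neither direction, with a median log2 fold change of 0.30. Examples were *nuo-2*, the counterpart of the core subunit NDUFS3 (254 ± 15.4 FPKM in *gas-1* mutants and 172 ± 5.37 FPKM in wt, SD, n = 5 each, log2 fold change 0.56, SE 0.046, limma adjusted p = 5.4e-06), and the accessory subunit gene *ndua-12* (log2 fold change 0.58). The single member that fell was *nduf-2.2*, a paralog of *gas-1* on chromosome III from 6465222 to 6467206. It measured 202, 215, 204, 212 and 208 FPKM in *gas-1* mutants, against 299, 271, 294, 303 and 275 FPKM in wt. No library of either strain crossed into the range of the other, and *nduf-2.2* fell by 0.47 on the log2 scale (SE 0.04, limma adjusted p = 7.4e-06). In wt the transcript of *nduf-2.2* was thus above that of *gas-1* per kilobase, whereas in *gas-1* mutants the levels of both overlapped.

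The other complexes showed the same pattern of a broad rise and a few falling paralogs. Of 25 nuclear genes of complexes II to IV and cytochrome c, 22 passed as higher, 2 as lower and 1 in neither direction, with a median of 0.44, and of 14 nuclear ATP synthase genes 11 passed as higher, 1 as lower and 2 in neither direction, with a median of 0.39. In complex II, *sdha-1*, a flavoprotein subunit gene, measured 277, 234, 266, 266 and 285 FPKM in *gas-1* mutants, against 148, 151, 133, 146 and 154 FPKM in wt. Its paralog *sdha-2* measured 73.3, 76.2, 76.1, 75.6 and 68.9 FPKM in *gas-1* mutants, against 100.1, 93.5, 98.9, 104 and 97.2 FPKM in wt. The first lay higher in every mutant library than in any wt library (log2 fold change 0.86, SE 0.058, limma adjusted p = 1.6e-06) and the second lower (log2 fold change -0.41, SE 0.04, limma adjusted p = 1.6e-05). In complex III the core protein genes *ucr-2.1* and *ucr-2.2* rose by 1.00 and 0.82 on the log2 scale, while *ucr-2.3* fell by 0.26 (limma adjusted p = 0.004). In the ATP synthase, the subunit b gene *asb-2* rose by 0.80 and its paralog *asb-1* fell by 0.35 (limma adjusted p = 4.9e-05). Each member of these pairs that rose lies on chromosome X, and those that fell lie on chromosomes I and III. These pairs were picked out after their values were seen. Other members that rose were *isp-1*, the Rieske iron-sulfur protein (log2 fold change 0.58), *mev-1*, a membrane anchor of complex II (0.48), *cyc-1*, cytochrome c1 (0.33), and *atp-3*, a stalk subunit of the ATP synthase (0.57). Mitochondrially encoded subunits were not analysed here.

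**Figure D2:**
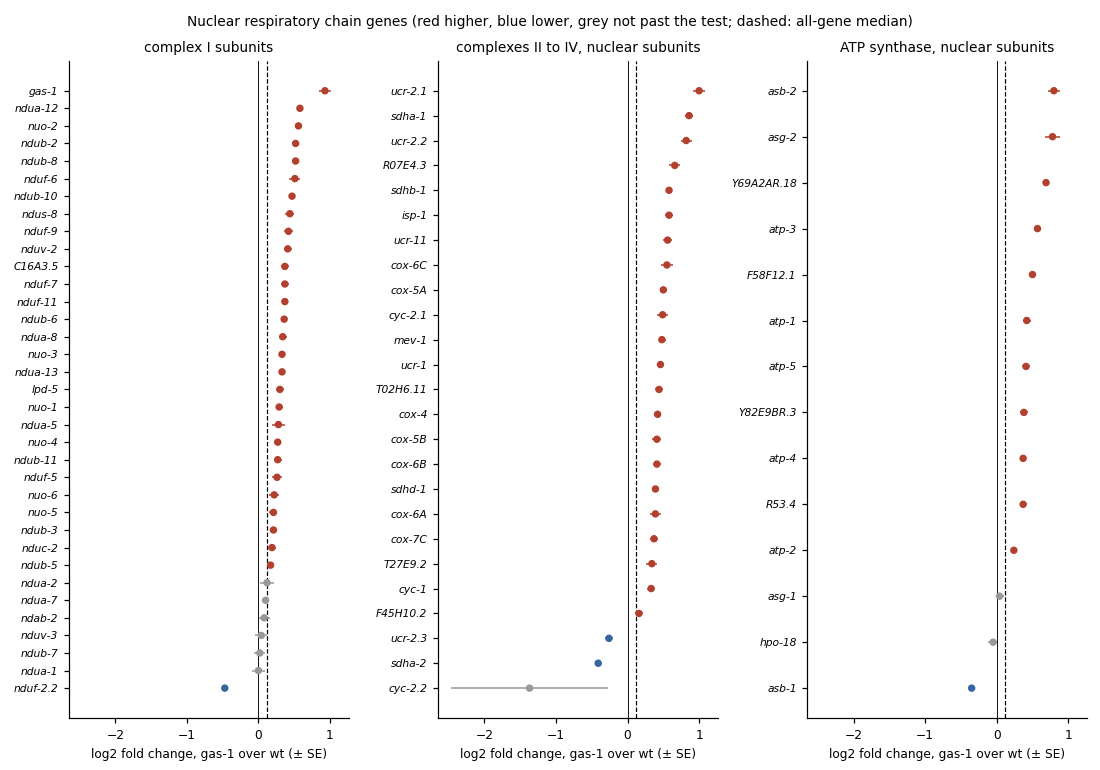
Log2 fold change in *gas-1* mutants over wt (points, with bars of ± SE) of nuclear genes of complex I, of complexes II to IV and of the ATP synthase, 5 libraries per strain. Red genes rose, blue genes fell and grey genes did not pass the test, the dashed line marks the all-gene median of 0.12, and *nduf-2.2*, *sdha-2*, *ucr-2.3* and *asb-1* are the blue points opposite to their complexes.

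Ubiquinone, the electron acceptor of complex I, is made by the *coq* genes and is also fed by other dehydrogenases. Of 15 such genes, 9 passed as higher, 1 as lower and 5 in neither direction. The largest rises were in *sqrd-1* and *coq-1*, of which *coq-1* encodes the enzyme that builds the isoprenoid tail of ubiquinone. It measured 38.1, 41.5, 37.7, 38.8 and 41.3 FPKM in *gas-1* mutants, against 16.7, 18.3, 15.2, 18.4 and 16.9 FPKM in wt. Every mutant library was far above the highest wt library (log2 fold change 1.20, SE 0.06, limma adjusted p = 1.7e-07). The kinase-like gene *coq-8* rose by 0.67 and *clk-1*, the hydroxylase of a late step, by 0.53 on the log2 scale. The single member that fell was *gpdh-3*, a glycerol-phosphate dehydrogenase gene (log2 fold change -0.30, limma adjusted p = 9.3e-05).

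Most genes of the tricarboxylic acid (TCA) cycle rose as well. Of 26 genes of the cycle and of pyruvate dehydrogenase, 19 passed as higher, 2 as lower and 5 in neither direction (median 0.30). Citrate synthase, *cts-1*, averaged 1128 ± 105 FPKM in *gas-1* mutants and 717 ± 52.1 FPKM in wt (SD, n = 5 each), and it was higher in every mutant library (log2 fold change 0.65, SE 0.073, limma adjusted p = 4e-05). Aconitase (*aco-2*) rose by 0.50, fumarase (*fum-1*) by 0.53 and the isocitrate dehydrogenase subunit gene *idha-1* by 0.48 on the log2 scale. The largest change was in *icl-1*, the bifunctional enzyme of the glyoxylate bypass, with 290.3, 204, 261, 254 and 412 FPKM in *gas-1* mutants, against 146, 72.1, 105, 67.8 and 125 FPKM in wt. The groups did not overlap, although the mutant values spread widely (log2 fold change 1.49, SE 0.24, limma adjusted p = 0.00042). Succinyl-CoA ligase was divided, because *sucl-1*, an alpha subunit, rose by 0.69 and *sucg-1*, a GTP-dependent beta subunit, fell by 0.55 (limma adjusted p = 2e-05).

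The genes that mark mitochondrial stress moved in different directions. Of 21 genes linked to the mitochondrial unfolded protein response, 10 passed as higher, 5 as lower and 6 in neither direction, a share close to that of all genes. The mitochondrial Hsp70 gene *hsp-6*, the usual reporter of this response, measured 316, 284, 322, 311 and 286 FPKM in *gas-1* mutants, against 294, 276, 279, 310.3 and 259.9 FPKM in wt. The strains overlapped and the difference did not pass the test (log2 fold change 0.10, SE 0.056, limma adjusted p = 0.15), although it did after quantile normalization (log2 fold change 0.17). The chaperonin gene *hsp-60* averaged 106 ± 3.17 FPKM in *gas-1* mutants and 128 ± 19.1 FPKM in wt (SD, n = 5 each) and was lower (log2 fold change -0.26, limma adjusted p = 0.026), a call that was lost without *gas-1* replicate 1 or 5 or wt replicate 2 (log2 fold change -0.25, -0.25 and -0.23). Values of the transcription factor gene *atfs-1*, which drives the response, overlapped between strains (log2 fold change 0.16, SE 0.083, limma adjusted p = 0.12), but the gene passed the test without wt replicate 3 (log2 fold change 0.21). Other members did rise, among them *dve-1*, a homeodomain factor of the response (log2 fold change 0.69), the mitochondrial protease gene *clpp-1* (0.44), the mitochondrial J protein gene *dnj-10* (0.66), the import channel gene *timm-23* (0.69) and *jmjd-3.1*, a histone demethylase gene (10.7 ± 1.14 FPKM in *gas-1* mutants and 4.40 ± 0.832 FPKM in wt, SD, n = 5 each, log2 fold change 1.28, SE 0.13, limma adjusted p = 1.8e-05). The cofactor gene *ubl-5* fell by 0.34 (limma adjusted p = 0.0037).

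Mitochondrial dynamics genes changed little. Of 12 measured of 13 listed genes of fusion, fission and mitophagy, 3 passed as higher, 1 as lower and 8 in neither direction, and more fell than rose after median-of-ratios scaling (3 and 7) and after quantile normalization (2 and 4). The mitofusin gene *fzo-1* averaged 48.9 ± 2.60 FPKM in *gas-1* mutants and 49.8 ± 0.509 FPKM in wt (SD, n = 5 each, log2 fold change -0.03, SE 0.041, limma adjusted p = 0.59). Values of the dynamin gene *drp-1* (log2 fold change 0.03), the kinase gene *pink-1* (0.00), the parkin gene *pdr-1* (-0.10) and *wah-1*, the nematode counterpart of AIF (0.08), did not pass the test either. After median-of-ratios scaling *fzo-1*, *pink-1* and *pdr-1* passed as lower, by 0.13, 0.11 and 0.21. The mitophagy receptor gene *dct-1* rose, with 171 ± 17.0 FPKM in *gas-1* mutants and 100.2 ± 32.8 FPKM in wt (SD, n = 5 each, log2 fold change 0.84, SE 0.21, limma adjusted p = 0.0054), and the inner membrane fusion gene *eat-3* fell by 0.17 (limma adjusted p = 0.0043). Of 17 measured of 18 listed import genes, 6 passed as higher, 3 as lower and 8 in neither direction, with more falling than rising after median-of-ratios scaling (3 and 5) and quantile normalization (3 and 9), and *timm-17B.1* rose by 0.44. Mitochondrial ribosomal protein genes did not follow the respiratory chain. Of 69 such genes 7 passed as higher, 20 as lower and 42 in neither direction (median -0.07), with *mrps-31* (12.4 ± 0.840 FPKM in *gas-1* mutants and 17.9 ± 1.65 FPKM in wt, SD, n = 5 each, log2 fold change -0.52, SE 0.074, limma adjusted p = 0.00018) and *mrpl-45* (log2 fold change -0.47) among those that fell.

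**Figure D3:**
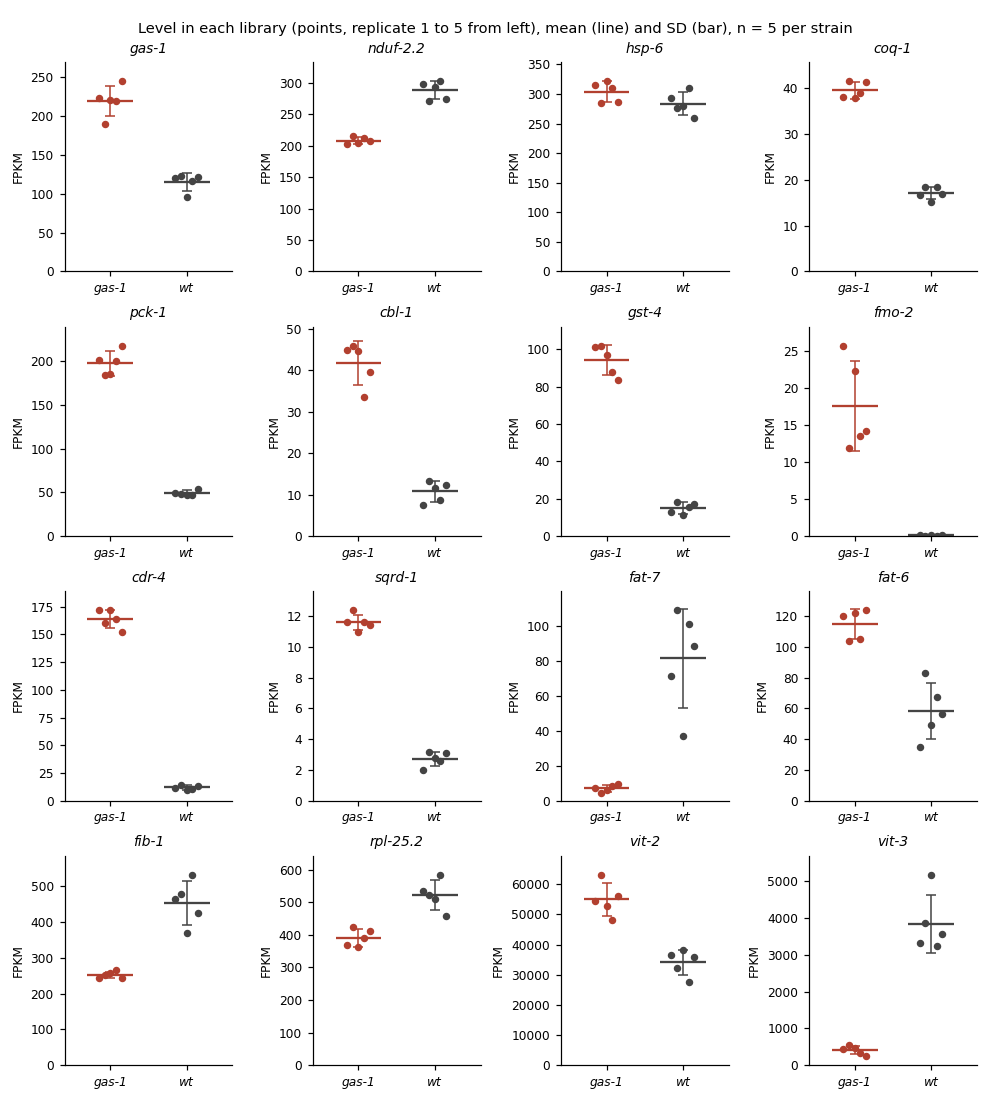
FPKM of 16 genes in each of the 5 *gas-1* (red) and 5 wt (grey) libraries, replicates 1 to 5 from left to right, with the mean as a line and the SD as a bar, on axes that start at 0. The strains overlap for *hsp-6*, from 284 to 322 FPKM in *gas-1* mutants and 259.9 to 310.3 FPKM in wt, whereas the other 15 genes are separated.

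Central carbon metabolism was higher at many steps. Of 25 genes of glycolysis and gluconeogenesis, 16 passed as higher, 2 as lower and 7 in neither direction (median 0.49). The cytosolic phosphoenolpyruvate carboxykinase gene *pck-1*, which starts gluconeogenesis, measured 201, 184, 185, 200.2 and 218 FPKM in *gas-1* mutants, against 49.8, 48.3, 47.1, 46.6 and 54.3 FPKM in wt. The strains were far apart, with little spread in either (log2 fold change 2.00, SE 0.058, limma adjusted p = 5.8e-09). Its homolog *pck-2* also rose (log2 fold change 0.79, SE 0.066, limma adjusted p = 6e-06). In glycolysis proper, the aldolase gene *aldo-1* rose by 1.57, the glyceraldehyde phosphate dehydrogenase genes *gpd-2* and *gpd-3* by 1.37 and 1.15, the phosphofructokinase gene *pfk-1.1* by 0.82 and the enolase gene *enol-1* by 0.73. Lactate dehydrogenase, *ldh-1*, which regenerates NAD+ from NADH without the respiratory chain, measured 164, 149, 147, 171 and 180.0 FPKM in *gas-1* mutants, against 81.0, 86.2, 79.6, 84.8 and 91.8 FPKM in wt. Its mutant and wt libraries were separate (log2 fold change 0.94, SE 0.063, limma adjusted p = 1.6e-06). Values of the hexokinase gene *hxk-1* averaged 259.7 ± 15.3 FPKM in *gas-1* mutants and 257 ± 18.8 FPKM in wt (SD, n = 5 each) and did not pass the test, and neither did those of the pyruvate kinase gene *pyk-1* (log2 fold change -0.04, and -0.14, past the test, after median-of-ratios scaling). Of the acid glucosidase genes, which release glucose from glycogen in lysosomes, *aagr-1* had a log2 fold change of -0.05 (limma adjusted p = 0.83). The more abundant *aagr-2* fell by 0.27 (limma adjusted p = 0.026). It averaged 191 ± 14.9 FPKM in *gas-1* mutants and 231 ± 31.4 FPKM in wt (SD, n = 5 each), with an overlap. Trehalose, glycerol and water channel genes gave 9 that rose and 2 that fell of 16 measured of 22 listed, among them the trehalose phosphate synthase gene *tps-1* (log2 fold change 0.83) and the aquaporin gene *aqp-2* (1.22).

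Lipid genes rose more often than all genes in the classes of beta-oxidation and of synthesis (56.9% and 52.4% higher), with members moving the opposite way in each class. Of 58 measured of 66 listed genes of fatty acid activation and beta-oxidation, 33 passed as higher, 5 as lower and 20 in neither direction (median 0.36). The carnitine palmitoyltransferase gene *cpt-4*, of the step that brings fatty acids into mitochondria, measured 38.5, 23.5, 41.9, 25.0 and 29.4 FPKM in *gas-1* mutants, against 3.79, 1.81, 4.21, 0.963 and 4.01 FPKM in wt. No mutant library came near the wt range (log2 fold change 3.53, SE 0.38, limma adjusted p = 3.2e-05). The acyl-CoA synthetase gene *acs-2*, a target of the receptor NHR-49, averaged 60.1 ± 25.5 FPKM in *gas-1* mutants and 17.6 ± 11.2 FPKM in wt (SD, n = 5 each, log2 fold change 1.89, SE 0.43, limma adjusted p = 0.0031), with an overlap because wt replicate 1 had 34.0 FPKM and *gas-1* replicate 2 had 29.6 FPKM. Against the class, the acyl-CoA dehydrogenase gene *acdh-2* (27.3 ± 2.44 FPKM in *gas-1* mutants and 83.6 ± 25.6 FPKM in wt, SD, n = 5 each, log2 fold change -1.56, SE 0.19, limma adjusted p = 6.2e-05) and the peroxisomal oxidase gene *acox-1.2* (log2 fold change -1.48) fell.

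Among the desaturases, the stearoyl-CoA desaturase genes *fat-6* and *fat-7* moved in opposite directions. The *fat-7* gene measured 7.01, 4.26, 6.27, 8.29 and 9.24 FPKM in *gas-1* mutants, against 71.2, 109, 37.1, 101 and 88.4 FPKM in wt. The lowest wt library was far above the highest mutant library (log2 fold change -3.47, SE 0.3, limma adjusted p = 7.6e-06). In contrast *fat-6* measured 119.9, 104, 122, 105 and 124 FPKM in *gas-1* mutants, against 34.8, 83.2, 49.1, 67.3 and 56.5 FPKM in wt. It rose, and its strains did not overlap (log2 fold change 1.04, SE 0.19, limma adjusted p = 0.001). The palmitoyl-CoA desaturase gene *fat-5* fell with *fat-7*, averaging 1.25 ± 0.240 FPKM in *gas-1* mutants and 5.47 ± 2.72 FPKM in wt (SD, n = 5 each, log2 fold change -1.92). The polyunsaturated desaturase genes *fat-1*, *fat-2* and *fat-4* rose by 0.63, 1.13 and 0.60 on the log2 scale, and *sbp-1*, the sterol-regulated factor of lipid synthesis, by 0.73. In all, 11 of 21 measured synthesis, desaturase and elongase genes rose and 2 fell. Among 23 measured of 29 listed lipases and fatty acid binding proteins, 9 passed as higher, 5 as lower and 9 in neither direction. These shares, 39.1% higher and 21.7% lower, were near those of all genes. The lysosomal lipase gene *lipl-5* averaged 258 ± 40.7 FPKM in *gas-1* mutants and 84.2 ± 26.5 FPKM in wt (SD, n = 5 each, log2 fold change 1.67, SE 0.24, limma adjusted p = 0.0002), whereas the secreted fatty acid and retinol binding protein genes *far-1* and *far-2* fell by 1.04 and 0.77 on the log2 scale. Values of the adipose triglyceride lipase gene *atgl-1* did not pass the test (log2 fold change 0.13).

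Amino acid, methyl and nucleotide metabolism held some of the larger metabolic changes. Of 24 genes of the methionine cycle, folate and transsulfuration, 13 passed as higher, 4 as lower and 7 in neither direction (median 0.45). The gene *cbl-1*, named for cystathionine beta-lyase, measured 45.0, 46.0, 44.7, 33.6 and 39.6 FPKM in *gas-1* mutants, against 7.57, 13.4, 11.6, 8.81 and 12.4 FPKM in wt. Its lowest mutant library was well above the highest wt library (log2 fold change 1.97, SE 0.16, limma adjusted p = 5e-06). Glycine cleavage was higher through *gldc-1* (log2 fold change 0.93) and *gcst-1* (0.84), and cystathionine synthesis through *cbs-1* (0.65). The main S-adenosylmethionine synthetase gene *sams-1* averaged 227 ± 12.1 FPKM in *gas-1* mutants and 217 ± 32.0 FPKM in wt (SD, n = 5 each, limma adjusted p = 0.47). Of 16 propionate breakdown genes 8 passed as higher, 3 as lower and 5 in neither direction. In this pathway both propionyl-CoA carboxylase genes of the vitamin B12-dependent route rose, *pcca-1* by 0.75 and *pccb-1* by 0.57, and the mutase gene *mmcm-1* rose by 0.28. On the alternative shunt, *hach-1* fell, with 51.1 ± 1.63 FPKM in *gas-1* mutants and 112 ± 22.0 FPKM in wt (SD, n = 5 each, log2 fold change -1.11, SE 0.12, limma adjusted p = 2.5e-05), and values of *acdh-1*, its first enzyme, overlapped (log2 fold change 0.08). Of 20 measured purine and pyrimidine genes 11 passed as higher, 3 as lower and 6 in neither direction, with the late purine synthesis gene *atic-1* (log2 fold change 0.92), purine nucleoside phosphorylase *pnp-1* (1.30) and xanthine dehydrogenase *xdh-1* (1.16) among those that rose. Of 19 measured genes of the kynurenine, tyrosine and NAD pathways, 8 passed as higher, 1 as lower and 10 in neither direction (42.1% higher, near the share of all genes, and 5.26% lower). The tyrosine breakdown genes *tatn-1* and *hpd-1* both rose by 1.26 on the log2 scale. The proton-coupled transhydrogenase gene *nnt-1*, which uses NADH to make NADPH in mitochondria, measured 4.09, 3.22, 3.73, 4.98 and 7.86 FPKM in *gas-1* mutants, against 1.53, 0.809, 1.41, 0.845 and 1.89 FPKM in wt. The strains were separate at low levels (log2 fold change 1.80, SE 0.28, limma adjusted p = 0.00033). The NAD synthetase gene *qns-1* fell by 0.54 (limma adjusted p = 0.01).

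Most measured members of the detoxification families were higher, among them several of the largest rises. Glutathione S-transferases had 24 of 31 measured members higher and 1 lower (49 are listed; median 0.79), cytochrome P450 genes 30 higher and 4 lower of 48 measured of 74 (median 0.65), and UDP-glucuronosyltransferases 35 higher and 6 lower of 52 measured of 67 (median 0.72). These shares lie above the 40.9% of all genes, but genes of low level rose more often in general, at 58.4% in the lowest of 4 level groups. Some members, such as *gst-14*, *cyp-13A8* and *cyp-14A4*, were below 1 FPKM in every wt library and passed the filter only through the mutant libraries. With the filter at 5 FPKM, 16 of 19 glutathione S-transferase, 13 of 23 P450 and 24 of 30 UDP-glucuronosyltransferase genes were higher, against 34.6% of the 7761 genes then tested. The oxidative stress reporter *gst-4*, a target of SKN-1, measured 101, 102, 97.0, 87.7 and 83.8 FPKM in *gas-1* mutants, against 12.9, 18.4, 11.1, 15.7 and 17.0 FPKM in wt. The strains were far apart (log2 fold change 2.66, SE 0.13, limma adjusted p = 1.6e-07). A still larger change on the log2 scale was that of *gst-14*, with 7.99, 6.57, 7.54, 7.13 and 7.38 FPKM in *gas-1* mutants, against 0.0591, 0.0840, 0.119, 0.0468 and 0.0749 FPKM in wt. It was nearly absent from wt (log2 fold change 5.40, SE 0.13, limma adjusted p = 2.1e-09). Among the P450 genes, which oxidise xenobiotics and lipids, *cyp-33C8* averaged 132 ± 10.9 FPKM in *gas-1* mutants and 4.62 ± 0.601 FPKM in wt (SD, n = 5 each, log2 fold change 4.81, SE 0.096, limma adjusted p = 6.8e-10), while *cyp-14A4*, *cyp-13A8* and *cyp-14A1* rose by 5.21, 4.90 and 3.01 on the log2 scale. The glucuronosyltransferase gene *ugt-62* averaged 241 ± 30.2 FPKM in *gas-1* mutants and 15.5 ± 2.33 FPKM in wt (SD, n = 5 each). It rose by 3.95 on the log2 scale, *ugt-19* by 4.16 and *ugt-2* by 3.39. Members in the opposite direction were *ugt-41* (3.75 ± 0.789 FPKM in *gas-1* mutants and 12.9 ± 2.65 FPKM in wt, SD, n = 5 each, log2 fold change -1.76, SE 0.19, limma adjusted p = 2.8e-05) and *cyp-35A5* (log2 fold change -1.03, limma adjusted p = 0.013).

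The largest rise of the detoxification genes, on the log2 scale, was that of *fmo-2*. This flavin monooxygenase gene, known to be raised through HIF-1, measured 25.7, 11.9, 22.3, 13.5 and 14.2 FPKM in *gas-1* mutants, against 0.120, 0.0581, 0.172, 0.0317 and 0.0826 FPKM in wt. All wt libraries were close to 0 (log2 fold change 6.49, SE 0.26, limma adjusted p = 3.8e-08), so *fmo-2* passed the filter only through the mutant libraries. Of 5 flavin monooxygenase genes 3 passed as higher, none as lower and 2 in neither direction, and *fmo-4* was among those that rose (log2 fold change 0.86). ABC transporters, which move lipids, heme and toxins across membranes, gave 27 higher and 11 lower of 44 measured of 52 listed, so that both directions were at or above the shares of all genes. The P-glycoprotein genes *pgp-5* and *pgp-9* rose by 2.72 and 1.71, and *mrp-5*, which exports heme from the intestine in nematodes, averaged 37.8 ± 2.55 FPKM in *gas-1* mutants and 16.1 ± 2.82 FPKM in wt (SD, n = 5 each, log2 fold change 1.24, SE 0.1, limma adjusted p = 6.7e-06). Short-chain dehydrogenases had 13 higher and 3 lower of 25 measured of 30 listed, a majority that turned to 6 and 7 after quantile normalization. Among them *dhs-8* rose by 2.10.

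The known regulators of these enzymes gave smaller values. Those of *skn-1*, the factor of the oxidative stress response, averaged 247 ± 15.8 FPKM in *gas-1* mutants and 230.3 ± 15.4 FPKM in wt (SD, n = 5 each) and did not pass the test (log2 fold change 0.10, limma adjusted p = 0.14), although the gene did without wt replicate 3 (log2 fold change 0.14). Its repressor gene *wdr-23* rose by 0.37 (limma adjusted p = 0.0025). Another SKN-1 target, the glutamate-cysteine ligase gene *gcs-1*, had 8.48, 7.61, 8.50, 7.86 and 7.62 FPKM in *gas-1* mutants, against 8.70, 7.90, 8.06, 8.04 and 7.55 FPKM in wt. Here the strains overlapped (log2 fold change -0.01, SE 0.06, limma adjusted p = 0.93), and only after quantile normalization did the gene pass, as lower (log2 fold change -0.31). Of these known SKN-1 targets *gst-4* thus rose and *gcs-1* did not pass the test, a contrast picked out after the values were seen.

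Antioxidant genes as a class were close to the shares of all genes. Of 29 measured of 36 listed superoxide, peroxide and thiol enzymes, 13 passed as higher, 6 as lower and 10 in neither direction (44.8% higher and 20.7% lower), which turned to 9 higher and 11 lower after quantile normalization. The mitochondrial thioredoxin *trx-2* and its reductase *trxr-2* both rose, by 0.66 and 0.80 on the log2 scale. Methionine sulfoxide reductase, *msra-1*, measured 145, 143, 153, 179.5 and 165 FPKM in *gas-1* mutants, against 105, 51, 63.0, 43.2 and 62.3 FPKM in wt. The mutant libraries were all above wt (log2 fold change 1.34, SE 0.2, limma adjusted p = 0.00023). The extracellular superoxide dismutase gene *sod-4* rose by 0.98 and the peroxiredoxin gene *prdx-2* by 0.33, while the cytosolic dismutase gene *sod-1* fell by 0.14 (limma adjusted p = 0.0087). The mitochondrial dismutase gene *sod-2* averaged 33.1 ± 2.48 FPKM in *gas-1* mutants and 29.1 ± 0.937 FPKM in wt (SD, n = 5 each), a rise of 0.18 that did not pass the test after median-of-ratios scaling (log2 fold change 0.08) or quantile normalization (0.12).

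Cytosolic heat shock proteins were lower, against the trend of most stress classes. Of 18 measured of 29 listed members, 4 passed as higher, 11 as lower and 3 in neither direction (median -0.17). The constitutive Hsp70 gene *hsp-1* averaged 5563 ± 308 FPKM in *gas-1* mutants and 7604 ± 610.3 FPKM in wt (SD, n = 5 each, log2 fold change -0.45, SE 0.072, limma adjusted p = 0.00038), the Hsp90 gene *hsp-90* fell by 0.36 and *hsp-110* by 0.48 on the log2 scale. Quantile normalization set the change of *hsp-1*, one of the most abundant transcripts, to 0.00, as this scaling sets a given rank to a single value across libraries. The small heat shock protein gene *hsp-17* rose, with 7.03 ± 0.562 FPKM in *gas-1* mutants and 3.00 ± 0.366 FPKM in wt (SD, n = 5 each, log2 fold change 1.20, SE 0.097, limma adjusted p = 5e-06). Endoplasmic reticulum stress genes had 9 members higher and 1 lower of 23 (39.1% and 4.35%), the first share near that of all genes. These counts became 5 and 7 after median-of-ratios scaling. The number higher was 5 without *gas-1* replicate 5 or without wt replicate 1, 2 or 4. The transcription factor gene *xbp-1* rose by 0.53 (limma adjusted p = 5.8e-05) and *pek-1*, the PERK kinase, by 0.66 (limma adjusted p = 0.0034). In the other direction, the chaperone gene *hsp-4* fell by 0.18 (limma adjusted p = 0.032). It averaged 42.8 ± 0.853 FPKM in *gas-1* mutants and 48.6 ± 5.12 FPKM in wt (SD, n = 5 each), without overlap.

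Genes of the hypoxia and hydrogen sulfide response rose almost as a group. Of 20 measured of 24 listed members, 18 passed as higher, 1 as lower and 1 in neither direction (median 0.60). The hypoxia-inducible factor gene *hif-1* measured 271, 245, 261, 258 and 285 FPKM in *gas-1* mutants, against 206, 194, 184, 176 and 192 FPKM in wt. Each mutant library lay above wt (log2 fold change 0.47, SE 0.052, limma adjusted p = 3.6e-05). The prolyl hydroxylase gene *egl-9*, which marks HIF-1 for breakdown, rose by 0.49, and *rhy-1*, another repressor of HIF-1, by 0.59. Both are also known as HIF-1 targets, and neither passed the test after quantile normalization (log2 fold change 0.11 and 0.19). The sulfide-sensing gene *cysl-1* averaged 26.5 ± 3.71 FPKM in *gas-1* mutants and 9.94 ± 1.40 FPKM in wt (SD, n = 5 each, log2 fold change 1.41, SE 0.12, limma adjusted p = 8e-06) and the cyanide and sulfide enzyme gene *cysl-2* rose by 1.28. The sulfide:quinone oxidoreductase gene *sqrd-1*, which passes electrons from sulfide to ubiquinone, measured 11.6, 12.4, 11.0, 11.6 and 11.4 FPKM in *gas-1* mutants, against 1.96, 3.18, 2.78, 2.55 and 3.07 FPKM in wt. The groups were well separated (log2 fold change 2.08, SE 0.12, limma adjusted p = 4.9e-07). The known HIF-1 target *nhr-57* rose by 2.20 on the log2 scale. It averaged 1.67 FPKM in *gas-1* mutants and 0.283 FPKM in wt, and passed the filter only through the mutant libraries.

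Heme, iron and metal genes included several of the largest rises. Of 35 measured of 39 listed members, 22 passed as higher, 3 as lower and 10 in neither direction (median 0.48). The cadmium-responsive gene *cdr-4* measured 172, 160.5, 172, 164 and 152 FPKM in *gas-1* mutants, against 11.2, 14.1, 9.53, 10.8 and 13.5 FPKM in wt. Its mutant libraries were far above wt (log2 fold change 3.80, SE 0.1, limma adjusted p = 3.1e-09), and *cdr-2* rose by 4.29. Genes known to rise when heme is low were also higher. The heme transporter gene *hrg-1* measured 35.2, 26.4, 32.8, 28.4 and 29.6 FPKM in *gas-1* mutants, against 5.73, 8.67, 10.8, 6.38 and 4.06 FPKM in wt. The related transporter gene *hrg-4* rose by 1.31, *hrg-2* by 4.56, *hrg-9* by 2.49, and *hrg-7*, a secreted protease that signals heme status between tissues, by 2.20 on the log2 scale. All mutant values of *hrg-1* were above all wt values (log2 fold change 2.15, SE 0.22, limma adjusted p = 2.6e-05). The ferritin gene *ftn-1*, which stores iron, had 5.64, 3.68, 5.30, 6.67 and 5.83 FPKM in *gas-1* mutants, against 1.05, 0.539, 0.152, 0.564 and 0.447 FPKM in wt. It was low in wt throughout (log2 fold change 3.22, SE 0.34, limma adjusted p = 2.8e-05), while the more abundant *ftn-2* rose by 0.46. The metallothionein genes *mtl-1* and *mtl-2* rose by 2.49 and 0.91.

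Transcription factors of the bZIP family, which act in stress and immune responses, rose in 16 of 22 measured of 26 listed cases and fell in none. Quantile normalization left 14 higher and 3 lower. The pathogen surveillance factor gene *zip-2* measured 63.2, 55.8, 59.0, 57.4 and 71.5 FPKM in *gas-1* mutants, against 24.8, 23.1, 23.0, 18.5 and 26.4 FPKM in wt. Its groups did not overlap (log2 fold change 1.41, SE 0.099, limma adjusted p = 2e-06). Other members that rose were *zip-1*, *zip-11* and *zip-12* (log2 fold changes 0.82, 1.78 and 1.18), the axon injury and stress factor gene *cebp-1* (1.33) and the AP-1 gene *jun-1* (0.93).

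Insulin/IGF signaling (IIS), which lies upstream of the forkhead factor DAF-16, changed in parts. Of 19 measured of 20 listed genes, 9 passed as higher, 6 as lower and 4 in neither direction, and more fell than rose after median-of-ratios scaling (5 and 8) and quantile normalization (5 and 6). Among the 9 was *daf-36*, a gene of steroid hormone synthesis rather than of IIS, with the largest rise of the list (log2 fold change 0.88). The receptor gene *daf-2* averaged 68.3 ± 4.63 FPKM in *gas-1* mutants and 70.6 ± 7.22 FPKM in wt (SD, n = 5 each, log2 fold change -0.05, SE 0.073, limma adjusted p = 0.59). The phosphoinositide kinase gene *age-1* fell by 0.25 (limma adjusted p = 0.035), a call lost without *gas-1* replicate 4 (-0.26) or 5 (-0.19) or wt replicate 1 (-0.26), 3 (-0.21) or 5 (-0.25). The kinase gene *akt-2* rose, with 4.12 ± 0.394 FPKM in *gas-1* mutants and 3.01 ± 0.436 FPKM in wt (SD, n = 5 each, log2 fold change 0.45), which became 0.02 after quantile normalization. The forkhead gene *daf-16* rose by 0.19 (limma adjusted p = 0.0015), a change of 0.09 that did not pass after median-of-ratios scaling. The kinase gene *sgk-1* rose by 0.86, and of the 14-3-3 genes *ftt-2* rose by 0.81 while *par-5* fell by 0.22. Insulin-like peptide genes, the ligands of this pathway, rose in 10 of 12 measured cases and fell in none, although only 3 rose after quantile normalization, and 27 of the 39 listed were below the filter. The ligand gene *ins-6* measured 6.16, 8.50, 7.56, 6.49 and 7.35 FPKM in *gas-1* mutants, against 4.07, 4.62, 4.41, 5.04 and 3.49 FPKM in wt. Its strains were separate at a few FPKM (log2 fold change 0.73, SE 0.12, limma adjusted p = 0.00038), and *ins-28* rose by 0.80.

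Targets that DAF-16 raises when IIS is low did not move as a block. Of 17 measured of 26 listed, 11 passed as higher, 2 as lower and 4 in neither direction. The metallothionein gene *mtl-1* had 1.43, 2.12, 1.41, 2.29 and 2.35 FPKM in *gas-1* mutants, against 0.188, 0.267, 0.330, 0.196 and 0.301 FPKM in wt. Although low, its mutant libraries were all above wt (log2 fold change 2.49, SE 0.19, limma adjusted p = 4e-06), and *mtl-1* passed the filter only through them. On the opposite side, the lysozyme gene *lys-7* fell by 0.99 (limma adjusted p = 0.014), as did *fat-5*. Of 26 measured of 28 listed genes of AMPK, TOR and PKA signaling, 12 passed as higher, 7 as lower and 7 in neither direction. These shares, 46.2% higher and 26.9% lower, were near those of all genes, and more fell than rose after median-of-ratios scaling and quantile normalization (7 and 8 in both). The AMPK catalytic subunit gene *aak-2* averaged 209.6 ± 9.36 FPKM in *gas-1* mutants and 173 ± 20.6 FPKM in wt (SD, n = 5 each, log2 fold change 0.28, SE 0.076, limma adjusted p = 0.0078), the regulatory subunit gene *aakg-4* rose by 1.07, and the beta subunit gene *aakb-2* fell by 0.48 (limma adjusted p = 6e-05). The catalytic and regulatory PKA genes *kin-1* and *kin-2* rose by 0.43 and 0.31, *kin-2* no longer passing the test after median-of-ratios scaling (log2 fold change 0.20). The Raptor gene *daf-15* and the S6 kinase gene *rsks-1*, which act with TOR in growth, fell by 0.24 and 0.16. The factor *hlh-30*, the nematode TFEB, rose by 0.61 (limma adjusted p = 6.6e-05).

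Most measured neuronal genes rose. Of 72 measured of 102 listed neuropeptide genes, 63 passed as higher, none as lower and 9 in neither direction (median 0.68), and of 18 measured of 25 listed synaptic and neuronal markers 17 passed as higher, none as lower and 1 in neither direction (median 0.51). Neurotransmitter-gated channel genes gave 18 higher and none lower of 30 measured of 103, which quantile normalization turned to 5 higher and 7 lower, while 36 neuropeptide genes and 8 synaptic genes still rose under it. The peptide gene *flp-18* averaged 11.3 ± 1.06 FPKM in *gas-1* mutants and 5.84 ± 0.484 FPKM in wt (SD, n = 5 each, log2 fold change 0.94, SE 0.082, limma adjusted p = 8.3e-06), and *nlp-14* rose by 1.03. Genes of neuropeptide processing and release also rose, with log2 fold changes of 0.77 for the convertase gene *egl-3*, 0.73 for the carboxypeptidase gene *egl-21* and 0.91 for *ida-1*, a dense-core vesicle protein. Syntaxin, *unc-64*, measured 16.2, 14.5, 15.3, 16 and 16.6 FPKM in *gas-1* mutants, against 11.5, 11.3, 9.33, 10.7 and 11.3 FPKM in wt. The lowest mutant library was above the highest wt library (log2 fold change 0.53, SE 0.068, limma adjusted p = 8.6e-05). An exception in size was *nlp-39*, with 2.49, 4.09, 3.17, 4.31 and 9.88 FPKM in *gas-1* mutants, against 0.0584, 0, 0.179, 0.0231 and 0.274 FPKM in wt. Its wt libraries were near 0 (log2 fold change 4.57, SE 0.44, limma adjusted p = 1.4e-05), so *nlp-39* passed the filter only through the mutant libraries. In whole animals, fewer cells of a type and less RNA per cell cannot be told apart, and this holds for every tissue or germline list described here. Beside this rise, the median log2(FPKM + 0.1) of oocyte genes was 6.86 to 7.18 in *gas-1* libraries and 7.22 to 7.42 in wt, and its part in the neuronal result was not tested.

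Most genes of the proton pump that acidifies lysosomes rose, and most proteasome genes fell. Of 21 V-ATPase genes, 18 passed as higher, 2 as lower and 1 in neither direction. The intestinal subunit gene *vha-6* measured 398, 336, 391, 364 and 406 FPKM in *gas-1* mutants, against 226, 193, 136, 168 and 195 FPKM in wt. It stood above its list, whose median was 0.24, and its strains did not overlap (log2 fold change 1.06, SE 0.12, limma adjusted p = 4.1e-05). Autophagy genes had 11 higher and 3 lower of 30 measured of 31 (7 and 5 after quantile normalization). The selective autophagy receptor gene *sqst-1*, the nematode p62, averaged 34.5 ± 5.84 FPKM in *gas-1* mutants and 11.2 ± 2.23 FPKM in wt (SD, n = 5 each, log2 fold change 1.63, SE 0.15, limma adjusted p = 1.2e-05), and *lgg-1*, the counterpart of Atg8, rose by 0.44. Values of *bec-1*, the Beclin gene, did not differ beyond their spread (log2 fold change 0.00, limma adjusted p = 0.98). Lysosomal aspartyl and cathepsin proteases gave 8 higher and 5 lower of 20 measured of 28 (40.0% and 25.0%), shares near those of all genes. Of these, *cpr-8* and *cpr-5* rose by 1.54 and 0.88, and *asp-14* (23.0 ± 3.74 FPKM in *gas-1* mutants and 81.1 ± 45.8 FPKM in wt, SD, n = 5 each, log2 fold change -1.67, SE 0.31, limma adjusted p = 0.00088) and *asp-12* (log2 fold change -1.63) fell. Proteasome subunits fell in 28 of 33 cases and rose in none (median -0.17), by small amounts such as 0.37 for *rpn-1* and 0.36 for *pbs-5*.

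The translation machinery was lower at nearly every level. Of 79 measured of 80 listed cytosolic ribosomal protein genes, 1 passed as higher, 57 as lower and 21 in neither direction (median -0.22), and 35 fell and 2 rose after quantile normalization. The large-subunit gene *rpl-25.2* measured 368, 424, 362, 389.9 and 413 FPKM in *gas-1* mutants, against 535, 524, 511, 585 and 457 FPKM in wt. Every mutant library lay below wt (log2 fold change -0.42, SE 0.069, limma adjusted p = 0.00047). The single ribosomal gene that rose was its paralog *rpl-25.1* on chromosome X, with 231, 218, 216, 229 and 257 FPKM in *gas-1* mutants, against 179, 191, 138, 191 and 159.8 FPKM in wt. The strains were separate here too (log2 fold change 0.43, SE 0.092, limma adjusted p = 0.0022). Of 44 translation factors, 6 passed as higher, 32 as lower and 6 in neither direction, and of 31 tRNA synthetases 1 passed as higher, 23 as lower and 7 in neither direction. The initiation factor genes *eif-3.J* and *egl-45*, both of eIF3, fell by 0.67 and 0.53, and the tryptophanyl-tRNA synthetase gene *wars-1* averaged 24.9 ± 0.776 FPKM in *gas-1* mutants and 41.4 ± 3.88 FPKM in wt (SD, n = 5 each, log2 fold change -0.73, SE 0.062, limma adjusted p = 7.2e-06). Exceptions were the eIF4E gene *ife-2*, which rose by 0.48, and *eef-1A.2*, a gene for elongation factor 1A on chromosome X, which rose by 0.83.

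Nucleolar genes, which act in the making of ribosomes, fell in nearly all cases. Of 30 measured of 31 listed genes, 1 passed as higher, 27 as lower and 2 in neither direction (median -0.51), and the counts were the same after quantile normalization and after median-of-ratios scaling. Fibrillarin, *fib-1*, which methylates ribosomal RNA, measured 244, 251, 256, 265 and 244 FPKM in *gas-1* mutants, against 465, 478, 368, 532 and 425 FPKM in wt. All mutant libraries were below all wt libraries, among which wt replicate 3 was lowest (log2 fold change -0.84, SE 0.084, limma adjusted p = 2e-05). The pseudouridine synthase gene *dkc-1*, the box C/D protein gene *nol-56* and the RNA polymerase I subunit gene *rpoa-2* fell by 0.78, 0.64 and 0.76 on the log2 scale. The only member that rose was *ncl-1*, known as a repressor of nucleolar size and ribosomal RNA synthesis, with 53.1, 60.3, 54.7, 60.4 and 58.4 FPKM in *gas-1* mutants, against 41.8, 50.9, 48.4, 49.0 and 48.6 FPKM in wt. The groups did not overlap, by a narrow margin (log2 fold change 0.27, SE 0.06, limma adjusted p = 0.0031).

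Cuticle genes showed the largest median of all 66 lists. Of 95 measured of 174 listed collagen genes, 62 passed as higher, 4 as lower and 29 in neither direction, with a median log2 fold change of 1.89. The collagen gene *col-14* measured 67.5, 23.9, 75.5, 72.3 and 50.4 FPKM in *gas-1* mutants, against 11.0, 10.9, 0.814, 7.49 and 6.53 FPKM in wt, and *sqt-1* measured 12.5, 3.71, 14.8, 15.1 and 8.75 FPKM in *gas-1* mutants, against 1.49, 2.72, 0.0127, 1.38 and 1.19 FPKM in wt. Both were higher in every mutant library than in any wt library, with the lowest values in *gas-1* replicate 2 and wt replicate 3 of each strain (log2 fold change 3.26, SE 0.65, limma adjusted p = 0.0015 for *col-14*, and log2 fold change 3.32, SE 0.79, limma adjusted p = 0.004 for *sqt-1*). The median log2(FPKM + 0.1) of the list was 3.84, 2.79, 4.03, 4.04 and 3.84 in *gas-1* libraries and 2.19, 2.13, 0.33, 1.84 and 1.90 in wt. Without both libraries that stood apart in sperm genes, 70 collagens rose and 8 fell, with a median of 1.75. Many collagen genes are near-identical and share reads in ways that FPKM do not show. The abundant collagen gene *col-124* fell by 0.77 (limma adjusted p = 0.013). Molting and cuticle enzyme genes gave 21 higher and 3 lower of 34 measured of 66. The protease inhibitor gene *mlt-11*, needed to shed the old cuticle, averaged 25.0 ± 5.36 FPKM in *gas-1* mutants and 5.65 ± 5.81 FPKM in wt (SD, n = 5 each, log2 fold change 2.63, SE 0.54, limma adjusted p = 0.0017), and the apical matrix genes *noah-1* and *fbn-1* rose by 2.12 and 2.23, with 9.54 and 13.6 FPKM in wt replicate 3 against at most 4.15 and 5.86 FPKM in the other wt libraries. The molting receptor gene *nhr-25* averaged 160.0 ± 13.4 FPKM in *gas-1* mutants and 66.2 ± 45.3 FPKM in wt (SD, n = 5 each) and rose by 1.51 (limma adjusted p = 0.0044). In wt replicate 3 *mlt-11* and *nhr-25* had 15.4 and 139 FPKM, against at most 6.65 and 82.1 FPKM in the other wt libraries, whereas collagens were lowest there. By contrast *nhr-23*, the driver of the molting cycle, measured 27.9, 29.0, 30.8, 27.0 and 23.2 FPKM in *gas-1* mutants, against 38.1, 39.2, 39.1, 39.6 and 37.9 FPKM in wt. This gene was lower in all mutant libraries (log2 fold change -0.50, SE 0.068, limma adjusted p = 0.00014). Hedgehog-related and patched-related genes, which act in the nematode epidermis, had 19 higher and 5 lower of 32 measured of 86, with *grl-5* and *grl-7* up by 3.52 each and *grd-3* down by 1.55. Glutamine-rich *abu* and *pqn* genes gave 23 higher and 7 lower of 40 measured of 70.

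Immune effectors changed by large amounts in both directions. Of 64 measured of 240 listed C-type lectin genes, 33 passed as higher, 7 as lower and 24 in neither direction. The lectin gene *clec-190* measured 105, 156, 130.3, 116 and 121 FPKM in *gas-1* mutants, against 7.65, 8.04, 17.0, 7.96 and 13.2 FPKM in wt. The gap between strains was wide (log2 fold change 3.60, SE 0.22, limma adjusted p = 8.4e-07). A lectin of lower level, *clec-4*, rose by 5.34 and *clec-52* fell by 2.52 on the log2 scale. Of 7 measured lysozyme genes 4 rose and 3 fell, in opposite directions for the most abundant. The gene *lys-2* measured 622, 830.3, 584, 437 and 802 FPKM in *gas-1* mutants, against 43.3, 62.8, 81.4, 50.3 and 70.7 FPKM in wt. The invertebrate-type lysozyme gene *ilys-5* measured 314, 322, 314, 362 and 346 FPKM in *gas-1* mutants, against 1106, 1157, 942, 983 and 1118 FPKM in wt. Without any overlap of strains, *lys-2* was higher in mutants (log2 fold change 3.41, SE 0.21, limma adjusted p = 7.6e-07) and *ilys-5* was lower (log2 fold change -1.68, SE 0.068, limma adjusted p = 4.1e-08). Likewise *lys-1* rose by 1.24 and *lys-4* fell by 2.64. Antimicrobial peptide and saposin genes had shares near those of all genes, with 12 higher and 8 lower of 34 measured of 96 (35.3% and 23.5%), and 6 higher and 12 lower after quantile normalization. The defensin-like gene *abf-2* rose by 3.03 and *fipr-1* fell by 1.35. Among 14 measured *pals* and *irg* genes, several of which are known to rise upon infection, 9 passed as higher, 4 as lower and 1 in neither direction. The gene *pals-6* rose by 3.16, *irg-2* by 2.94, and *irg-4* (2.20 ± 0.836 FPKM in *gas-1* mutants and 6.69 ± 1.74 FPKM in wt, SD, n = 5 each, log2 fold change -1.62, SE 0.26, limma adjusted p = 0.00041) and *irg-5* (log2 fold change -1.08) fell. The genes *pals-6*, *irg-2* and *abf-2* were below 1 FPKM in every wt library and passed the filter only through the mutant libraries. F-box, MATH and BATH genes, a large family of ubiquitin ligase adaptors, had 88 of 171 measured members higher and 29 lower (395 are listed), a balance that quantile normalization turned to 37 higher and 46 lower. Transthyretin-related genes gave 17 higher and 10 lower of 37 measured of 58 (45.9% and 27.0%, near the shares of all genes).

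More germline genes fell than rose among oocyte, meiosis and P granule lists, while 43.0% of genes in the most abundant of 4 level groups fell as well. Of 50 measured of 54 listed oocyte, eggshell and maternal regulators, 4 passed as higher, 26 as lower and 20 in neither direction, of 77 measured of 78 meiosis and cell cycle genes 3 passed as higher, 35 as lower and 39 in neither direction, and of 38 measured of 40 Argonaute and P granule genes 6 passed as higher, 22 as lower and 10 in neither direction. The yolk receptor gene *rme-2* of oocytes measured 675, 717, 702, 649 and 605 FPKM in *gas-1* mutants, against 885, 895, 1057, 871 and 928 FPKM in wt. The strains did not overlap (log2 fold change -0.47, SE 0.065, limma adjusted p = 0.00015). The germline Notch receptor gene *glp-1* fell by 0.49, the P granule helicase gene *glh-1* by 0.69 and the Argonaute gene *csr-1* by 0.65 on the log2 scale. The helicase gene *znfx-1*, of small RNA inheritance, averaged 62.4 ± 4.46 FPKM in *gas-1* mutants and 107 ± 5.80 FPKM in wt (SD, n = 5 each, log2 fold change -0.78, SE 0.057, limma adjusted p = 2.6e-06). Members of the Argonaute list that rose were *alg-1*, of the microRNA pathway (log2 fold change 0.69), and *sago-2* (0.98), both picked out after their values were seen. Values of *oma-2*, which acts in oocyte maturation, overlapped (log2 fold change -0.17, SE 0.094, limma adjusted p = 0.13), and the gene passed only after median-of-ratios scaling (log2 fold change -0.28). Of 81 listed histone genes, many of which are near-identical copies, 18 were measured, and 9 passed as higher, 3 as lower and 6 in neither direction.

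The result for sperm genes depended on wt replicate 3. Of 40 measured of 84 listed sperm genes 2 passed as higher, 2 as lower and 36 in neither direction, with a median of -1.15. The major sperm protein gene *msp-33* measured 8.08, 1.99, 8.55, 11.8 and 7.86 FPKM in *gas-1* mutants, against 44.6, 50.4, 0.561, 47.2 and 23.2 FPKM in wt. In wt replicate 3 it was almost absent, whereas the other wt libraries had 23.2 to 50.4 FPKM. The median log2(FPKM + 0.1) of the list was 1.28, -0.05, 1.41, 1.89 and 1.38 in *gas-1* libraries and 3.50, 3.50, -1.17, 3.52 and 2.22 in wt, so that *gas-1* replicate 2 was also low for its strain. Without wt replicate 3, 32 sperm genes fell, and without wt replicate 3 and *gas-1* replicate 2 together 32 fell and 3 rose. The log2 fold change of *msp-33* was -2.56 without wt replicate 3 and -2.13 without both, and -1.38 with all libraries (limma adjusted p = 0.3). Of the members that passed with all libraries, the kinase gene *spe-6* and the vacuolar ATPase gene *spe-5* rose by 0.48 and 0.85, and *spe-39* and *spe-44* fell by 0.37 and 0.28. Within strains, the first component of the remaining variance accounted for 74.7%. Early embryo patterning factors moved against the sperm genes, with list medians of 2.37, 2.69, 2.34, 2.40 and 2.64 in *gas-1* libraries and 1.19, 1.27, 2.48, 1.03 and 1.86 in wt. Of 9 measured of 18 such factors 5 passed as higher, none as lower and 4 in neither direction. Of these, 2 rose without wt replicate 1, 2 or 4 or *gas-1* replicate 5, 3 without wt replicate 5 or *gas-1* replicate 1, 2, 3 or 4, and none after quantile normalization. Whether the animals of both strains were at the same stage was not tested.

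**Figure D4:**
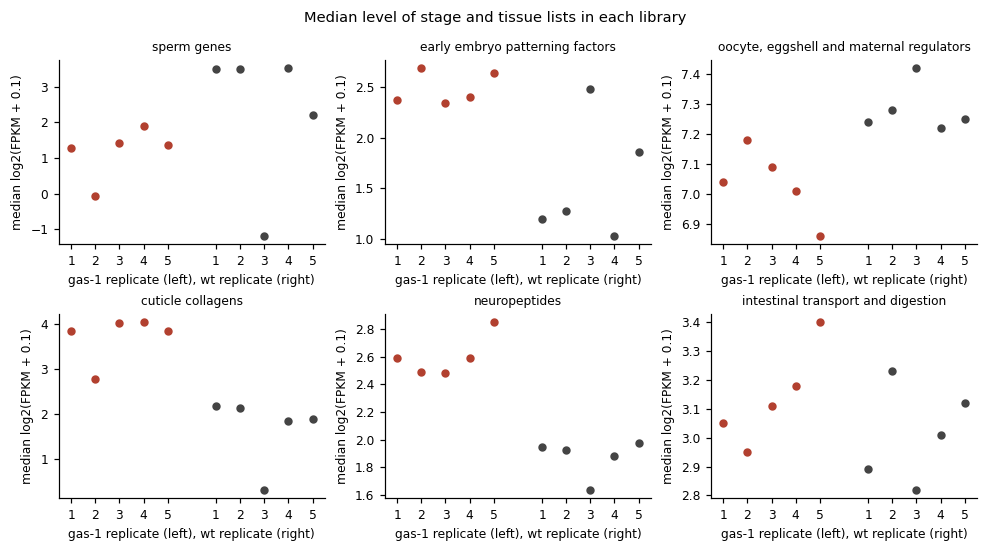
Median log2(FPKM + 0.1) of 6 gene lists in each library, *gas-1* replicates 1 to 5 (red, left) and wt replicates 1 to 5 (grey, right) in each panel. For sperm genes wt replicate 3 (-1.17) and *gas-1* replicate 2 (-0.05) sit below the rest of their strain, wt replicate 3 is the highest wt library for embryo factors (2.48) and the lowest for collagens (0.33), and neuropeptides separate the strains in every library.

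Yolk protein genes, made in the intestine for the oocytes, were the most abundant class and split in direction. Of 6 vitellogenin genes 2 rose and 4 fell. The *vit-2* gene measured 54622, 63202, 52940.5, 48309 and 56045 FPKM in *gas-1* mutants, against 36617, 32296, 38121, 27589.8 and 35773 FPKM in wt. Each mutant library was above wt (log2 fold change 0.70, SE 0.13, limma adjusted p = 0.00079), but quantile normalization, which gives equal ranks equal values, set its change to 0.00. *vit-6* rose by 0.64 on the log2 scale. By contrast *vit-3* measured 439, 538, 458, 331 and 261 FPKM in *gas-1* mutants, against 3314, 3852, 5179.8, 3249 and 3564 FPKM in wt. All its mutant libraries were far below wt (log2 fold change -3.26, SE 0.2, limma adjusted p = 7.3e-07). The genes *vit-1*, *vit-4* and *vit-5* fell by 1.05, 1.46 and 0.49, and since *vit-3* to *vit-5* are near-identical copies, the way reads were divided among them is uncertain.

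Among tissue lists, intestinal genes rose and muscle genes mostly did not pass the test. Of 25 measured of 29 intestinal transport and digestion genes, 16 passed as higher, 1 as lower and 8 in neither direction (median 0.64). The gut esterase gene *ges-1* measured 47.1, 47.6, 48.2, 48.6 and 66.2 FPKM in *gas-1* mutants, against 38, 29.4, 20.5, 24.7 and 29.7 FPKM in wt. It was higher in each mutant library (log2 fold change 0.87, SE 0.16, limma adjusted p = 0.00077), and the gut factor genes *elt-2* and *elt-7* rose by 0.74 and 0.97, the first not passing after quantile normalization (log2 fold change 0.21). Of 50 measured of 52 muscle genes 12 passed as higher, 3 as lower and 35 in neither direction (19 and 8 without wt replicate 3 and *gas-1* replicate 2). The myosin gene *myo-3* rose without overlap (log2 fold change 0.63, SE 0.19, limma adjusted p = 0.014). It averaged 75.2 ± 7.34 FPKM in *gas-1* mutants and 50.3 ± 13.5 FPKM in wt (SD, n = 5 each), lowest in wt replicate 3 (28.6 FPKM). The body wall myosin gene *unc-54* averaged 187 ± 14.4 FPKM in *gas-1* mutants and 189 ± 33.9 FPKM in wt (SD, n = 5 each, log2 fold change 0.00, SE 0.13, limma adjusted p = 1). Nuclear hormone receptors, many of which respond to lipids and xenobiotics, had 95 of 130 measured members higher and 3 lower (273 are listed; median 0.67). Quantile normalization left 57 higher and 16 lower. The receptor gene *nhr-61* measured 65.4, 62.4, 61.7, 58.7 and 72.7 FPKM in *gas-1* mutants, against 7.81, 8.16, 9.87, 7.20 and 9.19 FPKM in wt. Its strains were far apart (log2 fold change 2.92, SE 0.09, limma adjusted p = 7.4e-09), and *nhr-115* and *nhr-8* rose by 2.97 and 1.89. Values of *nhr-49*, the receptor of fasting and fatty acid metabolism, averaged 29.4 ± 0.883 FPKM in *gas-1* mutants and 28.4 ± 0.659 FPKM in wt (SD, n = 5 each, log2 fold change 0.05, SE 0.036, limma adjusted p = 0.26). Homeobox, bHLH, T-box and GATA factors gave 40 higher and 4 lower of 69 measured of 139, such as *hlh-11* (log2 fold change 1.21), *tbx-2* (0.99) and the Hox gene *lin-39* (0.73). Their share of 58.0% higher was near the 58.4% of all genes in the lowest of 4 level groups.

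Beyond these lists, which held 2273 of the tested genes, the largest changes fell on genes of uncertain role. By the rule of no overlap and a mean of at least 5 FPKM in a strain, the 20 genes that rose most had log2 fold changes from 4.04 to 6.49. They include *fmo-2*, *gst-14*, *clec-4*, *clec-17*, *cyp-14A4*, *cyp-13A8*, *cyp-33C8*, *hrg-2*, *cdr-2* and *ugt-19*, which are members of the detoxification, metal and lectin lists. Of these, *fmo-2*, *gst-14*, *clec-17*, *cyp-14A4* and *cyp-13A8* were below 1 FPKM in every wt library and passed the filter only through the mutant libraries. Their number is therefore no measure of these lists. Y49G5A.1, on chromosome V from 5286343 to 5287373, measured 35.8, 34.6, 37.1, 54.6 and 39.4 FPKM in *gas-1* mutants, against 0.311, 0.488, 0.134, 0.532 and 0.496 FPKM in wt. Its level in wt was below 1 FPKM throughout (log2 fold change 6.43, SE 0.26, limma adjusted p = 4.8e-08). F41C3.1, on chromosome II from 4752307 to 4752991, averaged 36.6 ± 11.7 FPKM in *gas-1* mutants and 0.463 ± 0.223 FPKM in wt (SD, n = 5 each), and B0205.13, on chromosome I from 10727755 to 10728808, averaged 22.3 ± 1.63 FPKM in *gas-1* mutants and 0.443 ± 0.128 FPKM in wt (SD, n = 5 each). *chca-1* rose by 5.02, with 171 ± 6.88 FPKM in *gas-1* mutants and 5.37 ± 1.46 FPKM in wt (SD, n = 5 each), and the acyltransferase family gene *oac-32* by 4.52. The 20 genes that fell most had log2 fold changes from -4.11 to -1.76. F42A10.7, on chromosome III from 6177916 to 6178686, measured 2.35, 2.05, 2.14, 5.98 and 1.70 FPKM in *gas-1* mutants, against 47.3, 54.9, 32.4, 53.7 and 43.2 FPKM in wt. The strains were far apart (log2 fold change -4.11, SE 0.3, limma adjusted p = 2.6e-06). *swt-3*, of the SWEET sugar transporter family, averaged 11.2 ± 2.51 FPKM in *gas-1* mutants and 81.7 ± 23.3 FPKM in wt (SD, n = 5 each, log2 fold change -2.84, SE 0.2, limma adjusted p = 2e-06). *pud-3*, named for proteins raised in *daf-2* mutants, fell by 3.42, the TIA-1-like RNA-binding protein gene *tiar-2* fell by 2.17 and R03D7.2 by 2.30 on the log2 scale. The fallen genes *fat-7*, *fat-5*, *vit-3*, *lys-4*, *clec-52* and *ugt-41*, described above, belong to the same 20.

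The direction of change followed the level of a gene. When the tested genes were divided into 4 groups of equal size by their mean log2 level over the 10 libraries, 58.4% rose and 6.16% fell in the lowest group, 50.4% and 15.8% in the next, 32.5% and 31.2% in the one above, and 22.4% and 43.0% in the highest group. The medians were 0.54, 0.32, -0.02 and -0.11 in that order. Some lists of low level had shares near those of the lowest and the next group. These were neurotransmitter-gated channels (60.0% higher), homeobox and related factors (58.0%), C-type lectins (51.6%) and F-box, MATH and BATH genes (51.5%). With a filter at 5 FPKM, which drops low genes, 2682 genes rose and 2419 fell, and the all-gene median was -0.01. The filter itself is not even between strains, because 341 genes had at least 1 FPKM in all mutant libraries and in no wt library, and 18 had the reverse. The 341 genes include *pals-6*, *irg-2*, *abf-2*, *nhr-57*, *nhr-115*, *hrg-9*, *dhs-8*, *grl-5*, *grl-7*, *mtl-1*, *fmo-2*, *nlp-39*, *gst-14* and *clec-17*, which were tested only because of the mutant libraries.

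Genes on chromosome X, where *gas-1* itself lies, rose far more often than autosomal genes. The X chromosome is known to be largely silent in the nematode germline, so most of its transcripts come from the soma. Of 1545 tested X-linked genes 65.0% rose and 5.76% fell, with a median log2 fold change of 0.46, and of 9462 autosomal genes 36.9% rose and 27.0% fell, with a median of 0.04. The autosomes ranged from 29.4% higher and 32.6% lower on chromosome I to 46.3% higher and 21.9% lower on chromosome V. After quantile normalization 38.8% of X-linked genes rose and 14.5% fell, against 23.0% and 41.4% of autosomal genes, and after median-of-ratios scaling 56.0% and 7.57%, against 31.1% and 38.2%. Without wt replicate 3 and *gas-1* replicate 2 the shares were 72.8% and 6.86% on X and 39.5% and 30.4% on the autosomes. In the group of lowest level the medians were alike, 0.53 for X-linked and 0.54 for autosomal genes, and in the highest group 58.8% of X-linked and 19.3% of autosomal genes rose. The oocyte, meiosis and P granule lists, which were written for germline genes, had more members lower than higher in the same libraries. Their part in the chromosomal difference was not tested. Genes are not independent replicates, so these shares are descriptions and carry no p-value.

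**Figure D5:**
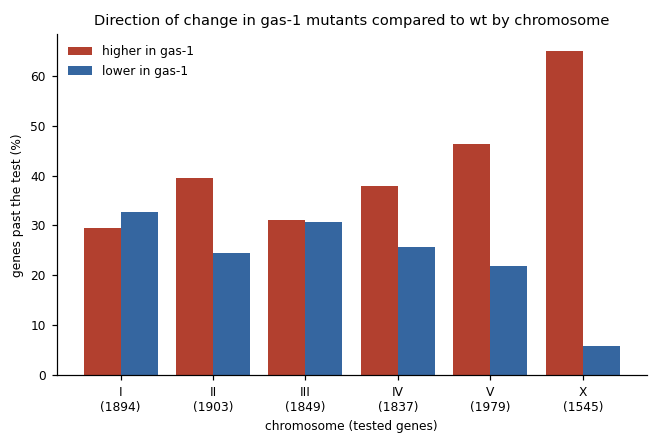
Share of tested genes on each chromosome that rose (red) or fell (blue) in *gas-1* mutants compared to wt, by limma at 5% FDR, with the number of tested genes in brackets under each chromosome. Chromosome X has 65.0% higher and 5.76% lower, whereas chromosomes I and III have nearly equal shares in both directions.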

How the data were processed

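Stranded poly(A) libraries of *gas-1* mutants and wt, 5 each, were read from 10 deposited tables of FPKM, which the authors made per library without pooling. Cuffdiff, Cufflinks 2.1.1, FastQC 0.10.1, CASAVA 1.8.2 and STAR 2.4.0h are named in the processing notes of the submitters. The build, annotation and strand setting were not given in the sources used here. Overlapping, antisense and near-identical genes are therefore uncertain. Read totals are unknown, and gene positions came from WBcel235 by gene ID (20179 of 20483 matched). Within their strains, wt replicate 3 and *gas-1* replicate 2 had the most genes at 0 FPKM (2829 and 2188). The most common log2 ratio of low values to wt replicate 1, a rough mark of fewer reads, was also highest there (0.30 and 0.34). Whether depth had a part in what set these libraries apart was not tested.

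Genes of 1 FPKM or more in 5 or more of the 10 libraries were tested with limma 3.58.1 (R 4.3.3) on values of log2(FPKM + 0.1), using the mean-variance trend and Benjamini-Hochberg adjustment at 5% FDR. As no source ties a library to its own culture, p-values measure the spread between libraries, which may be partly technical. The test was checked on simulated data of these 11093 genes, which recovered 28% of genes with a log2 change of 0.25, 46% at 0.5, 86% at 1 and 96% at 2. Only 50 genes were changed at each size, and the noise was independent between genes. In the data 64.9% of genes passed and libraries varied together over many genes, so these rates need not hold for this comparison.

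Named genes were *gas-1*, genes the study names, the 20 that rose and 20 that fell most without overlap at a mean of 5 FPKM or more in either strain, the first 4 members of each list by p, and pathway members added after values were seen. The members and lists were chosen with earlier results of these data known, and 4 genes were removed from lists as misplaced after values were seen. Alternatives were other pseudocounts, filters, scalings, FDR, no trend, all 15 libraries, a replicate block, and libraries left out singly or as a pair. Figures were drawn with matplotlib 3.10.9.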

Additional observations from a re-analysis of the deposited data

Results flagged for a closer look

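For 270 of the genes named here, 540 groups of 5 libraries were screened for a library far from the other 4 of its strain, with Dixon's ratio above 0.71, which chance gives in about 1 of 20 groups. The screen picked 51 values, of which 22 lay in *gas-1* replicate 5 and 13 in wt replicate 3. No cause was tested. High values for the strain in *gas-1* replicate 5 were 11.1 FPKM of T16G1.5 (at most 8.07 in the others), 53.3 FPKM of Y49E10.16 (at most 46.7 in the others), 14.7 FPKM of Y58A7A.4 (at most 10.5 in the others), 1096 FPKM of *acdh-1* (at most 974 in the others) and 11.5 FPKM of *asp-12* (at most 8.08 in the others). The same library also had high values of 12.6 FPKM of *clec-17* (at most 6.72 in the others), 16.1 FPKM of *cpr-8* (at most 14.0 in the others), 69.2 FPKM of *eef-1A.2* (at most 63.0 in the others), 3.18 FPKM of *elt-2* (at most 2.34 in the others) and 546 FPKM of *fat-2* (at most 451 in the others). The same library also had high values of 66.2 FPKM of *ges-1* (at most 48.6 in the others), 2.43 FPKM of *lys-7* (at most 1.76 in the others), 9.88 FPKM of *nlp-39* (at most 4.31 in the others), 52.0 FPKM of *pgp-5* (at most 25.8 in the others) and 44.7 FPKM of *sqst-1* (at most 33.4 in the others). Low values for the strain in *gas-1* replicate 5 were 65.7 FPKM of *daf-15* (at least 71.9 in the others), 44.4 FPKM of *fzo-1* (at least 49.5 in the others), 237 FPKM of *gpdh-3* (at least 256 in the others), 233 FPKM of *hsp-110* (at least 257 in the others) and 182 FPKM of *rpn-1* (at least 202 in the others). The same library also had low values of 18.8 FPKM of *spe-39* (at least 20.1 in the others) and 2.40 FPKM of *ugt-41* (at least 3.90 in the others). High values for the strain in *gas-1* replicate 4 were 5.98 FPKM of F42A10.7 (at most 2.35 in the others), 54.6 FPKM of Y49G5A.1 (at most 39.4 in the others) and 4.85 FPKM of *clec-52* (at most 2.18 in the others). Low values for the strain in *gas-1* replicate 4 were 112 FPKM of *cyp-33C8* (at least 134 in the others), 189 FPKM of *ugt-62* (at least 244 in the others) and 1731 FPKM of *vit-6* (at least 1901 in the others). High values for the strain in *gas-1* replicate 2 were 56.5 FPKM of F41C3.1 (at most 33.8 in the others). Low values for the strain in *gas-1* replicate 2 were 5.36 FPKM of K10C2.8 (at least 7.75 in the others), 363 FPKM of *col-124* (at least 609 in the others), 60.3 FPKM of *daf-2* (at least 68.9 in the others) and 13.6 FPKM of *grd-3* (at least 18.7 in the others). High values for the strain in wt replicate 3 were 30.5 FPKM of *drp-1* (at most 28.0 in the others), 9.78 FPKM of *irg-4* (at most 6.20 in the others) and 4.50 FPKM of *irg-5* (at most 2.90 in the others). Low values for the strain in wt replicate 3 were 0.222 FPKM of B0205.13 (at least 0.447 in the others), 13.1 FPKM of *aldo-1* (at least 17.4 in the others), 12.4 FPKM of *asb-2* (at least 15.5 in the others), 188 FPKM of *atp-3* (at least 208 in the others) and 7.52 FPKM of *cysl-1* (at least 10.1 in the others). The same library also had low values of 95.7 FPKM of *gas-1* (at least 116 in the others), 15.7 FPKM of *kin-1* (at least 21.4 in the others), 43.4 FPKM of *kin-2* (at least 57.5 in the others), 52.0 FPKM of *sucl-1* (at least 63.8 in the others) and 131 FPKM of *unc-54* (at least 189.8 in the others). The other picked values were 25.6 FPKM of *clk-1* in wt replicate 5 (at least 27.3 in the others), 41.8 FPKM of *ncl-1* in wt replicate 1 (at least 48.4 in the others), 151 FPKM of *pck-2* in wt replicate 4 (at least 176 in the others), 27.5 FPKM of *sod-2* in wt replicate 2 (at least 29.3 in the others) and 8.40 FPKM of *ugt-2* in wt replicate 1 (at most 5.48 in the others). The changes of *gas-1*, *asb-2*, *atp-3*, *kin-1* and *sucl-1* kept their direction and their side of the threshold without wt replicate 3, and those of *fat-2*, *ges-1*, *pgp-5*, *sqst-1* and *nlp-39* did so without *gas-1* replicate 5.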

How the results depend on the processing

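Of 270 named genes compared, 244 kept their side of the FDR threshold under every alternative in which they were tested. Those that passed also kept their direction, which was not compared for genes that did not pass. Of 5915 values compared 5871 were unchanged in this sense, with 29 falling below the threshold and 14 passing it. The genes *aagr-2*, *hsp-4* and *myo-3*, which did not pass at 1% FDR, were not among those compared. The single turn was *vit-2*, at 0.00 after quantile normalization. Genes higher were 2682 with a filter at 5 FPKM, 7098 without a filter and 2796 after quantile normalization, with 4177 lower under the last. Counts of members in the leading direction moved as follows.

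After quantile normalization they were 2 for fusion and fission, 3 for import, 42 for mitochondrial ribosomal proteins (lower), 6 for short-chain dehydrogenases, 9 for antioxidants, 5 for IIS, 3 for insulin-like peptides, 7 for AMPK, TOR and PKA, 36 for neuropeptides, 7 for autophagy, 35 for cytosolic ribosomal proteins (lower), 6 for antimicrobial peptides, 37 for F-box genes, 20 for sperm genes (lower), 0 for embryo factors, 8 for synaptic markers, 5 for neurotransmitter-gated channels, 57 for nuclear hormone receptors and 20 for homeobox and related factors. After median-of-ratios scaling they were 3 for fusion and fission, 3 for import, 38 for mitochondrial ribosomal proteins (lower), 5 for endoplasmic reticulum stress, 5 for IIS, 7 for AMPK, TOR and PKA, 60 for meiosis (lower), 3 for embryo factors and 6 for muscle. At 1% FDR they were 3 for import, 13 for mitochondrial ribosomal proteins, 6 for heat shock proteins, 5 for endoplasmic reticulum stress, 7 for AMPK, TOR and PKA, 16 for proteasome subunits, 30 for cytosolic ribosomal proteins, 15 for *abu* and *pqn* genes, 6 for antimicrobial peptides, 1 for sperm genes, 1 for embryo factors, 4 for histones and 6 for muscle. With the filter at 5 FPKM, which leaves fewer members, they were 13 for cytochrome P450, 8 for short-chain dehydrogenases, 5 for IIS, 3 for insulin-like peptides, 33 for neuropeptides, 23 for collagens, 12 for molting, 7 for hedgehog-related, 13 for *abu* and *pqn*, 6 for antimicrobial peptides, 4 for *pals* and *irg*, 10 for transthyretin-related, 20 for F-box, 3 for embryo factors, 2 for channels, 38 for nuclear hormone receptors and 19 for homeobox and related genes. Without a filter, which adds members, they were 40 for glutathione S-transferases, 24 for insulin-like peptides, 106 for collagens, 42 for molting, 49 for hedgehog-related, 38 for *abu* and *pqn*, 68 for lectins, 28 for antimicrobial peptides, 23 for *pals* and *irg*, 163 for F-box, 45 for channels, 153 for nuclear hormone receptors and 68 for homeobox and related genes. Sperm genes that fell were 2 in the fit of all 15 libraries, 2 after upper-quartile scaling, 5 with a pseudocount of 1 FPKM and 32 without wt replicate 3 and *gas-1* replicate 2, the last setting giving 19 for muscle. Leaving out single libraries gave 2 to 7 for embryo factors, 5 to 10 for endoplasmic reticulum stress and 2 to 32 for sperm genes. Beyond the scalings and filters named, the cause was not tested.

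Same-numbered libraries of both strains did not deviate together, with correlations of 0.293, -0.701, -0.3, 0.589 and 0.259 for replicates 1 to 5, and only replicates 4 and 5 correlated best with their own number. With the replicate block 6881 genes passed, 436 calls were lost and 113 gained, embryo factors gave 3, *age-1* did not pass and *atfs-1* did. With 5 libraries per strain and FPKM without read totals, small changes of low genes are the least certain.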

Other observations

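Several of the genes with the largest changes have no role that could be stated from their names. Among the 20 that rose most, F22B3.7 averaged 6.26 ± 0.499 FPKM in *gas-1* mutants and 0.00595 ± 0.00674 FPKM in wt (SD, n = 5 each), Y58A7A.4 averaged 10.7 ± 2.28 FPKM in *gas-1* mutants and 0.194 ± 0.0860 FPKM in wt (SD, n = 5 each) and R08F11.4 averaged 26.9 ± 2.97 FPKM in *gas-1* mutants and 1.30 ± 0.881 FPKM in wt (SD, n = 5 each). Their log2 fold changes were 5.91, 5.24 and 4.46. T16G1.5 and Y49E10.16 rose by 4.43 and 4.04 on the log2 scale. Among the 20 that fell most, Y48E1B.8 measured 0.264, 0.191, 0.202, 0.416 and 0.341 FPKM in *gas-1* mutants, against 2.29, 8.75, 3.45, 6.85 and 5.73 FPKM in wt, and T22B7.7 measured 1.62, 2.70, 1.95, 1.68 and 1.35 FPKM in *gas-1* mutants, against 29.5, 37.6, 7.85, 32.4 and 9.45 FPKM in wt. All mutant libraries of both lay below all wt libraries (log2 fold changes -3.74 and -3.34). T13F3.6, F23F12.12, Y57G11B.5 and K10C2.8 had log2 fold changes of -2.38, -2.34, -2.09 and -1.89.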
